A study of Mus musculus with 2 samples.

Results

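Expression of 9 genes of ion transport and zone identity was followed in the mouse adrenal gland. They are the potassium channel genes Kcnk3, Kcnk9 and Kcnj5, the calcium channel genes Cacna1d and Cacna1h, the chloride channel gene Clcn2, the calcium pump gene Atp2b3, and 2 genes used as glomerulosa markers, Dab2 and Vsnl1. They were chosen by symbol among 43346 mouse gene identifiers, and all 9 were found in both gene tables together with their transcripts. RNA came from whole adrenal glands of adult C57BL/6J mice aged 8 weeks, taken from litters of both sexes, with no treatment and no altered allele named. Poly(A) RNA longer than 200 nt was sequenced as strand-marked 76-nt read pairs in 2 libraries, replicates 1 and 2, which the labels call biological replicates and which form the only group. The whole gland was sequenced, so zones were not separated, and fewer cells of a type and less RNA per cell cannot be told apart. With 1 group there is no condition to compare: levels are given per library and with the SD over both (n = 2, 1 residual degree of freedom), without a test.

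The zona glomerulosa is the outer shell of the adrenal cortex and makes aldosterone, the hormone that retains sodium. Its cells are held at a strongly negative membrane voltage by potassium leak channels, and angiotensin II or extracellular potassium depolarizes them, so that calcium enters through voltage-gated channels and turns on Cyp11b2, the aldosterone synthase gene. In humans, mutations of KCNJ5, CACNA1D, CACNA1H, CLCN2 and ATP2B3 cause forms of primary aldosteronism, and in mice the loss of Kcnk3 and Kcnk9 gives aldosterone excess.

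Mouse genes drew 47615328 expected counts in replicate 1 and 52890686 in replicate 2. Scaling factors by TMM were 1.00 in both, while the ERCC spike-in RNAs, added at a known amount, took 0.654% of all counts in replicate 1 and 0.485% in replicate 2. The libraries were not alike in markers of other cell types. The summed TPM (a level per length scaled to a fixed library total) of 10 adipose markers was 15722 in replicate 1 and 7111 in replicate 2, all 10 at 1 TPM or more in both, and that of 9 sympathetic neuron markers was 53.0 and 20.7 TPM, with 5 of 9 at that level. The 12 chromaffin markers summed to 4880 and 4162 TPM, the 5 fasciculata markers to 1607 and 2461 TPM and the 9 capsule and stroma markers to 537 and 618 TPM. Of those 9, 7 were higher in replicate 1 by scaled counts and 2, Nr2f2 and Mgp, in replicate 2. On the same scale 9 chromaffin markers were higher in replicate 1 and 3 in replicate 2, Pnmt among the 3. For fasciculata markers these numbers were 1 and 4, and for adipose markers 9 and 1. The 7 liver markers summed to 6.44 and 37.4 TPM, all 7 past 2-fold toward replicate 2 (Alb 22 and 441 counts) and 2 of 7 at 1 TPM or more in both, whereas none of 8 kidney markers reached 1 TPM in both libraries and their sum was 0.73 and 0.64 TPM. Although the labels speak of both sexes, all 4 Y-linked genes on the list had counts in replicate 1 and 0 in replicate 2. In replicate 1 these were Kdm5d (221 counts), Eif2s3y (79), Ddx3y (32) and Uty (26), and a count of 0 allows up to 3. Xist had 3401 and 8376 counts. RNA from Y-linked genes was thus seen in replicate 1 only and Xist in both, so the libraries differed in sex-linked RNA. Both libraries carry the same donor label, and the sex behind each was not recorded. The part of these differences in the ratios between libraries given here was not tested.

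Of the 9 genes, 8 reached 1 TPM or more in both libraries, against 54.6% of protein-coding genes and 28.7% of all mouse genes. The 9 genes spanned nearly the whole range of expression, and 4 of them lay above 100 TPM in each library. Among 20066 genes with a count, mean TPM was 102.49 at rank 1669 and 99.22 at rank 1725.

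**Figure D1:**
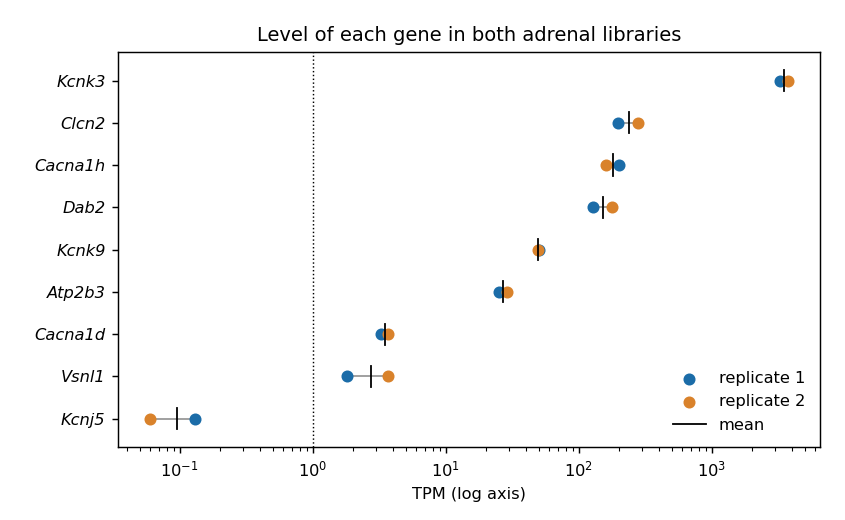
TPM of each gene on a log axis, with 1 point per library (blue, replicate 1; orange, replicate 2) and a black bar at the mean; the dotted line marks 1 TPM. Kcnk3 stands at 3273 and 3726 TPM, far above the others, and Kcnj5 at 0.13 and 0.06 TPM is the only one under the line.

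Kcnk3 encodes a TASK leak channel of the tandem-pore potassium channel family (K2P), open at resting voltage and closed by acid. Its gene (ENSMUSG00000049265.6, chr5:30588170-30625271, plus strand, mm10) was at 3273 and 3726 TPM in replicates 1 and 2, a mean of 3500 ± 321 TPM (SD, n = 2). It ranked 32nd of all genes by TPM in replicate 1 and 24th in replicate 2. By expected counts, which are not divided by length, it had 411481 counts in replicate 1 and 501634 in replicate 2, the fourth and the third highest of all genes, or 0.864% and 0.948% of all counts. A single potassium channel gene was thus among the most abundant transcripts of the whole adrenal gland in both libraries. Its level was 27.7 times that of Cyp11b2 in replicate 1 and 28.0 times in replicate 2.

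Kcnk9 encodes the other TASK subunit of the glomerulosa, which can pair with Kcnk3 in a mixed channel. The gene (ENSMUSG00000036760.6, chr15:72501089-72546340, minus strand) was at 49.83 and 49.60 TPM in replicates 1 and 2, a mean of 49.7 ± 0.163 TPM (SD, n = 2). By TPM and by TMM-scaled counts, the libraries differed less for Kcnk9 than for any other of the 9 genes. Scaled on the spike-ins instead, Cacna1h differed least. Kcnk3 was 65.7 times as high as Kcnk9 by TPM in replicate 1 and 75.1 times in replicate 2, and 234 and 266 times as high by counts. The scales differ by the lengths of the gene models: the quantified Kcnk9 transcript was 1209 nt long, equal to its coding length, while that of Kcnk3 was 3810 nt for a coding length of 1230 nt. In the later annotation M21 the Kcnk9 transcript is 12300 nt long, and the added part was outside the quantified model.

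Kcnj5 encodes an inwardly rectifying potassium channel opened by G proteins, and human KCNJ5 is the gene mutated most often in aldosterone-producing adenomas. In these mouse glands the gene (ENSMUSG00000032034.5, chr9:32314707-32344350, minus strand) was at 0.13 and 0.06 TPM in replicates 1 and 2, a mean of 0.095 ± 0.0495 TPM (SD, n = 2). These values rest on 19 counts in replicate 1, with an exact Poisson 95% interval of 11.4 to 29.7, and 9 counts in replicate 2, with an interval of 4.12 to 17.1. Intervals here cover counting error only. Kcnj3, whose product forms a mixed channel with that of Kcnj5 in the heart, was at 0.27 and 0.23 TPM. Neither gene reached 1 TPM in either library.

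The 3 potassium channel genes each encode a glycine-tyrosine-glycine stretch of the selectivity filter, through which potassium passes. Their coding sequences show how near the genes lie to each other. In the tandem-pore genes Kcnk3 and Kcnk9 this stretch is only part of the filter. The windows below are 69 bases of the coding sequence around the only in-frame match to GGNTANGGN in each gene, from GENCODE M21 transcripts on GRCm38; capitals mark the match. They span coding bases 253 to 321 in Kcnk3 and Kcnk9 and 421 to 489 in Kcnj5, counted from 1 at the start codon.
Kcnk3: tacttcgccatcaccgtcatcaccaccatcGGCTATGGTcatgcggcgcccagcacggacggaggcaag
Kcnk9: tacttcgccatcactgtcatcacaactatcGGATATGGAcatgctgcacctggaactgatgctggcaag
Kcnj5: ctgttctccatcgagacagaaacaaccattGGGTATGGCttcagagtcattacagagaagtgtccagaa

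Kcnk3 and Kcnk9 had 55 of 69 bases in common in this window (79.7%) and 809 of 1155 aligned bases (70.0%) over the coding sequence. Their longest shared run was 20 bases, shorter than a 76-nt read. No 76-base word of the M21 transcripts of any of the 9 genes occurred in a transcript of another gene, Kcnk3 and Kcnk9 included. At most 5.76% of a gene's exon bases, in Kcnk3, lay under exons of a gene on the opposite strand. The sources used here do not say whether the deposited counting used strand.

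Cacna1h encodes the pore of a T-type calcium channel, which opens at weak depolarization and carries the low-voltage calcium current of glomerulosa cells. The gene (ENSMUSG00000024112.12, chr17:25374285-25433783, minus strand) was at 201.67 and 160.32 TPM in replicates 1 and 2, a mean of 181 ± 29.2 TPM (SD, n = 2). Cacna1d encodes the pore of an L-type channel that opens at more negative voltages than its relatives. The gene (ENSMUSG00000015968.12, chr14:30039939-30491455, minus strand) was at 3.27 and 3.70 TPM in replicates 1 and 2, resting on 971 and 1175 counts. Cacna1h was 61.7 times as high as Cacna1d in replicate 1 and 43.3 times in replicate 2 by TPM. The ratio was 33.7 and 23.3 by counts, and 33.4 and 23.0 with complete coding transcripts only, so the T-type gene led in both libraries on each scale.

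Clcn2 encodes an inwardly rectifying chloride channel, whose opening depolarizes glomerulosa cells. The gene (ENSMUSG00000022843.12, chr16:20702964-20717746, minus strand) was at 198.81 and 280.36 TPM in replicates 1 and 2, a mean of 240 ± 57.7 TPM (SD, n = 2). It was level with Cacna1h in replicate 1, at a ratio of 0.986, and 1.75 times as high in replicate 2, so the libraries did not agree on the order of these genes. Atp2b3 encodes a plasma membrane calcium pump, which clears calcium from the cell. The gene (ENSMUSG00000031376.11, chrX:73503086-73571005, plus strand) was at 25.05 and 28.76 TPM in replicates 1 and 2, a mean of 26.9 ± 2.62 TPM (SD, n = 2).

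Dab2 encodes an adaptor of clathrin-mediated endocytosis and is used as a glomerulosa marker in rodents. The gene (ENSMUSG00000022150.12, chr15:6299788-6440712, plus strand) was at 127.44 and 178.34 TPM in replicates 1 and 2, a mean of 153 ± 36.0 TPM (SD, n = 2). Vsnl1 encodes visinin-like protein, a neuronal calcium sensor that is also known from the human glomerulosa. The gene (ENSMUSG00000054459.6, chr12:11325242-11436613, minus strand) was at 1.82 and 3.67 TPM in replicates 1 and 2, on 110 and 238 counts. Dab2 was the higher of the 2 markers, 70.0 times as high as Vsnl1 in replicate 1 and 48.6 times in replicate 2 by TPM. With complete coding transcripts only, the ratio was 21.2 and 13.0. Dab2 is also made by other cells, macrophages among them, and the 10 macrophage markers summed to 1062 and 983 TPM in replicates 1 and 2. How much of the Dab2 level came from such cells was not tested.

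By mean TPM the order was Kcnk3, Clcn2, Cacna1h, Dab2, Kcnk9, Atp2b3, Cacna1d, Vsnl1 and Kcnj5. Their ranks by mean TPM were 27, 696, 932, 1113, 3078, 4633, 10138, 10731 and 17035 among the 20066 genes with a count. Of the 8 neighbouring pairs in this order, 3 overlapped between the libraries: Clcn2 with Cacna1h, Cacna1h with Dab2, and Cacna1d with Vsnl1. The other 5 steps were the same in both libraries, the first of them being Kcnk3 over Clcn2, by 16.5 times in replicate 1 and 13.3 times in replicate 2. Counts scaled to library size without division by length put Cacna1h above Clcn2 and Atp2b3 above Kcnk9.

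**Figure D2:**
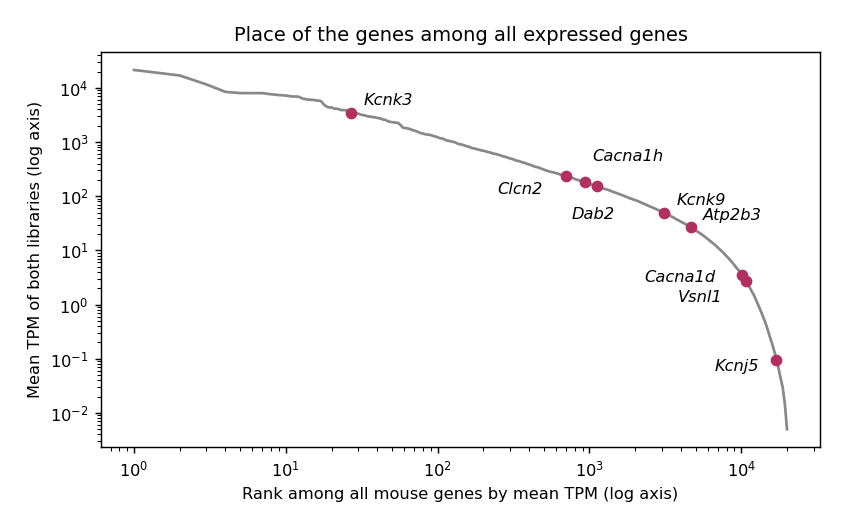
Mean TPM of both libraries against rank for all genes with a count (grey line, both axes log), with the 9 genes marked. Kcnk3 is at rank 27, Clcn2, Cacna1h and Dab2 lie between ranks 696 and 1113, and Kcnj5 at rank 17035 sits on the falling tail.

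Set against Cyp11b2, which was at 118.23 and 133.17 TPM in replicates 1 and 2, the other genes formed several bands. Clcn2 (1.68 and 2.11 times Cyp11b2), Cacna1h (1.71 and 1.20 times) and Dab2 (1.08 and 1.34 times) were above it in both libraries by summed TPM. With complete coding transcripts only, chosen after seeing the data, all 3 were below Cyp11b2 in both libraries: Clcn2 was at 0.553 and 0.560 of its level, Cacna1h at 0.925 and 0.639 and Dab2 at 0.327 and 0.359. Kcnk9 was at 0.421 and 0.372 of its level and Atp2b3 at 0.212 and 0.216. Cacna1d was at 0.0277 and 0.0278 and Vsnl1 at 0.0154 and 0.0276, far below it, as was Kcnj5. In a gland with several cell types, such a ratio compares RNA amounts and does not place the genes in 1 cell type.

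The place of each gene in its family was described next, as the share of the family's summed TPM. Kcnk3 held 97.1% of the TPM of 14 K2P genes in replicate 1 and 97.8% in replicate 2. Kcnk9 came second, at 1.48% and 1.30% of TPM, or 0.421% and 0.372% of the family's counts. The other K2P genes that reached 1 TPM in both libraries were Kcnk1 (23.27 and 6.54 TPM), Kcnk2 (9.75 and 11.53 TPM), Kcnk5 (6.15 and 9.63 TPM) and Kcnk6 (5.39 and 4.09 TPM). Kcnk1 was 3.68-fold higher in replicate 1 by scaled counts. The K2P set of the gland was therefore nearly all TASK in RNA terms, with either library alone.

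Among 15 inward rectifiers, Kcnj5 came 11th, with 0.569% of the family's TPM in replicate 1 and 0.400% in replicate 2. Only Kcnj8 (7.37 and 4.91 TPM) and Kcnj12 (5.17 and 4.91 TPM) reached 1 TPM in both libraries. The whole family of 15 summed to 22.85 and 15.01 TPM in replicates 1 and 2, under the level of Kcnk9 alone.

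Cacna1h held 74.2% of the TPM of 10 voltage-gated calcium channel pore genes in replicate 1 and 62.8% in replicate 2. The next were Cacna1a (28.84 and 41.22 TPM) and Cacna1c (23.78 and 37.15 TPM), the pore genes of P/Q-type channels and of the main L-type channel, then Cacna1b (10.44 and 8.05 TPM). By counts Cacna1c came second, with 5142 and 8551 counts, and Cacna1a had 1032 and 857, more in replicate 1 although its TPM was higher in replicate 2. Cacna1d was the fifth by TPM, at 1.20% in replicate 1 and 1.45% in replicate 2, next to the T-type gene Cacna1g (2.65 and 3.42 TPM). By counts it held 2.37% and 3.02% of the family, with 971 and 1175 counts against 227 and 182 for Cacna1g, and was the fourth in replicate 1 and the third in replicate 2. Of 8 auxiliary subunit genes, which the L-type and P/Q-type pores need for trafficking and gating, 5 reached 1 TPM in both libraries. Cacnb3 was highest at 28.64 and 23.58 TPM, followed by Cacnb1 (14.61 and 14.28 TPM), Cacnb2 (11.29 and 16.19 TPM), Cacna2d2 (14.72 and 12.04 TPM) and Cacna2d1 (7.94 and 8.68 TPM). Among the L-type pores, Cacna1c and not Cacna1d was the higher gene in both libraries.

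Clcn2 held 73.3% of the TPM of 9 ClC genes in replicate 1 and 76.4% in replicate 2, above the lysosomal exchanger gene Clcn7 (37.88 and 44.73 TPM). The endosomal genes Clcn4 (16.73 and 20.77 TPM), Clcn3 (7.98 and 9.10 TPM), Clcn6 (6.59 and 8.59 TPM) and Clcn5 (3.25 and 3.33 TPM) followed.

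Atp2b3 held 76.8% of the TPM of the 4 plasma membrane calcium pump genes in replicate 1 and 79.3% in replicate 2. Atp2b4 was at 4.20 and 4.43 TPM, Atp2b2 at 2.13 and 1.43 TPM and Atp2b1, the pump gene found in most tissues, at 1.25 and 1.66 TPM.

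Dab2 held 99.4% of the TPM of the 2 Dab genes in replicate 1 and 99.2% in replicate 2, with Dab1 at 0.80 and 1.36 TPM. Vsnl1 was the fifth of 7 neuronal calcium sensor genes, at 3.66% of their TPM in replicate 1 and 8.15% in replicate 2. Hpcal1 led them at 31.59 and 29.43 TPM, and Ncald (4.82 and 4.57 TPM), Hpcal4 (4.92 and 3.09 TPM), Ncs1 (3.95 and 2.86 TPM) and Hpca (2.64 and 1.39 TPM) were of the same order as Vsnl1. Of the 9 genes, 5 held most of their family's TPM in both libraries: Kcnk3, Cacna1h, Clcn2, Atp2b3 and Dab2. Shares sum all transcripts of a gene and were not redone with complete coding transcripts only. On that scale Clcn2 itself was at 65.39 and 74.55 TPM in replicates 1 and 2.

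**Figure D3:**
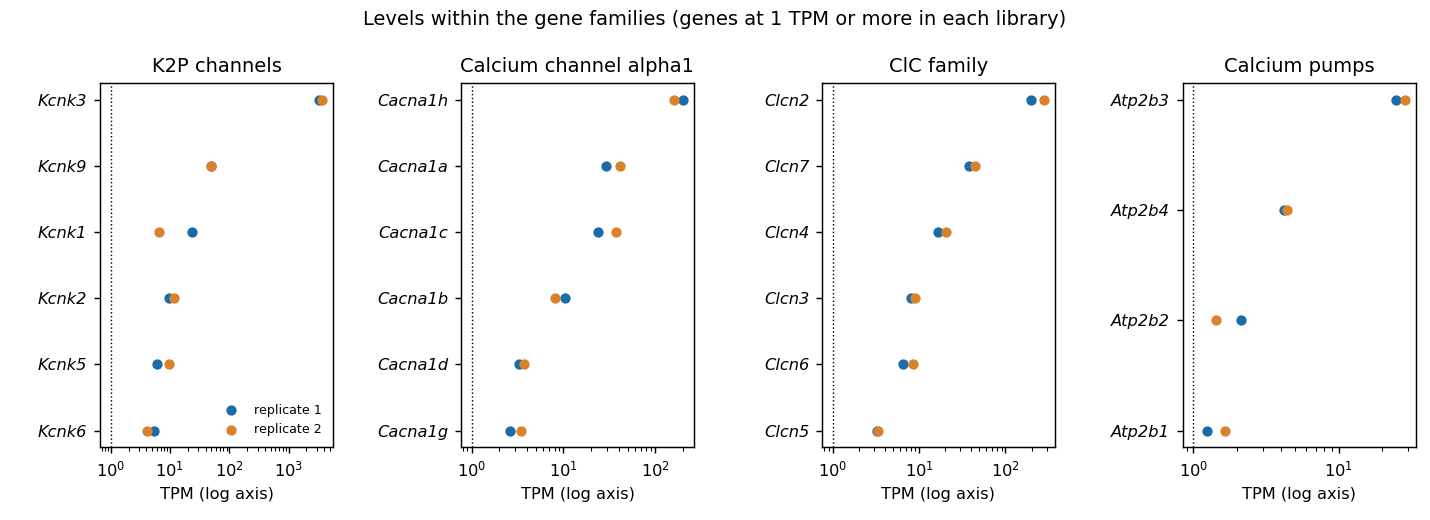
TPM (log axis) of the genes of 4 families at 1 TPM or more in each library, 1 point per library, with a dotted line at 1 TPM. The top gene of each panel is Kcnk3, Cacna1h, Clcn2 or Atp2b3, and its points lie right of all others in both libraries.

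Transcripts were read next, with classes from annotation M21 set on the deposited M4 quantities; reads shared by transcripts were split statistically upstream. Kcnk3, Kcnk9, Kcnj5 and Vsnl1 have 1 quantified transcript each, and the other 5 genes have several. Atp2b3-203 (4637 nt) carried 97.6% of the Atp2b3 TPM in either library. Cacna1d-202 (8680 nt) carried 83.2% of the TPM in both, at 2.72 and 3.08 TPM, and Cacna1d-201 held the rest at 0.55 and 0.62 TPM.

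The other 3 genes held much TPM outside complete coding transcripts. For Clcn2, 6 transcripts that retain an intron summed to 129.54 and 202.38 TPM in replicates 1 and 2, or 65.2% and 72.2% of the gene's TPM. Complete coding Clcn2 transcripts were at 65.39 and 74.55 TPM, 32.9% and 26.6%. By expected counts the classes were nearer, at 50.8% and 61.1% with a retained intron against 45.7% and 36.7% complete coding. Short models weigh more in TPM: in replicate 1, Clcn2-207 (999 nt) held 21.7% of TPM on 8.27% of counts. Clcn2-203 (600 nt) held 17.7% of TPM there on 3.39% of counts. The leading transcript differed between the libraries: it was the coding Clcn2-201 in replicate 1 (65.31 against 42.05 TPM) and the intron-retaining Clcn2-209 in replicate 2 (75.91 against 74.46 TPM). The libraries thus differed more in the retained-intron class of Clcn2 than in its coding class.

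For Dab2, the incomplete coding transcript Dab2-214 (2034 nt, its start not found) was at 88.64 and 130.44 TPM in replicates 1 and 2, 69.5% and 73.1% of the gene. Complete coding Dab2 transcripts were at 38.66 and 47.85 TPM, led by Dab2-203 at 30.07 and 35.49 TPM. For Cacna1h, Cacna1h-205 (8230 nt) was at 107.63 and 84.53 TPM, and the short incomplete fragment Cacna1h-207 (879 nt) at 85.86 and 70.15 TPM. The fragment took 42.6% and 43.8% of the Cacna1h TPM on 2040 and 1805 counts, while complete coding transcripts held 54.2% and 53.1% of TPM but 93.3% and 93.0% of counts. A short model thus carried much of the TPM of Cacna1h and few of its reads.

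With complete coding transcripts alone, an alternative chosen after seeing the data, the order became Kcnk3, Cacna1h (97.2 TPM on average), Clcn2 (70.0 TPM), Kcnk9 (49.7 TPM), Dab2 (43.3 TPM) and Atp2b3, and then only Kcnk3 stayed above 100 TPM. Kcnk3 led and Cacna1d, Vsnl1 and Kcnj5 came last on each of these scales.

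**Figure D4:**
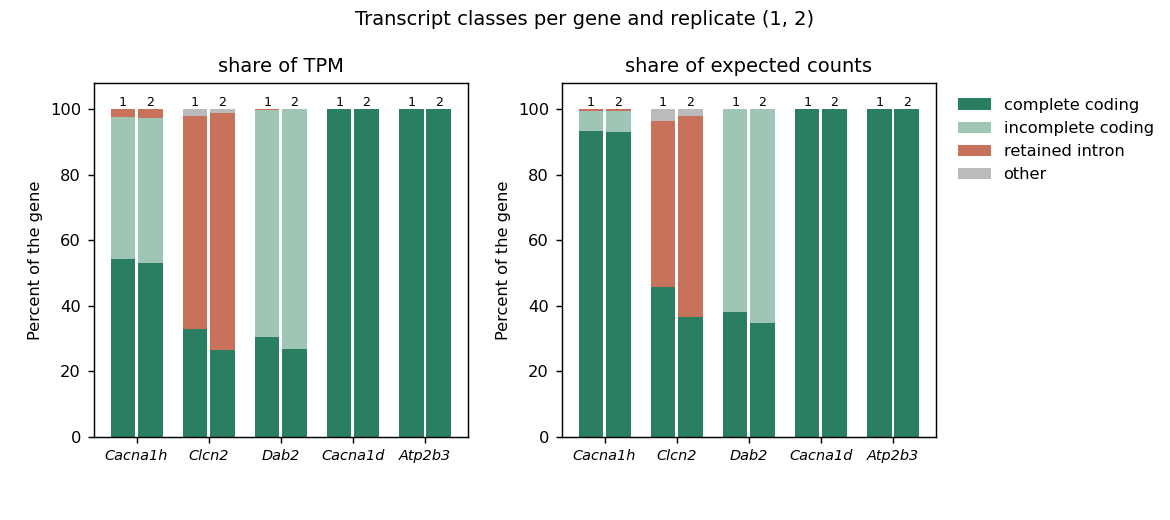
Percent of each gene held by transcript classes, as shares of TPM (left) and of expected counts (right), with 1 bar for replicate 1 and 1 for replicate 2 per gene. Cacna1h is 54.2% and 53.1% complete coding by TPM and 93.3% and 93.0% by counts, while intron-retaining transcripts of Clcn2 are the larger class on both scales.

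Start sites could be compared in Cacna1d and Dab2, whose quantified transcripts begin, by their M21 positions, near 2 RefSeq starts each. The counts used are those assigned to whole transcripts, not reads counted at a start. Only 2 Cacna1d transcripts were quantified, while annotation M21 holds 12. Cacna1d-202, from the upstream start at base 30491156 of chromosome 14, took 802.61 of the gene's counts in replicate 1 and 970.58 in replicate 2, or 82.7% and 82.6%. Cacna1d-201 took the other 17.3% and 17.4% and in M21 begins 495 bases inside the start at base 30353486. Its M21 model is 8068 nt long and the quantified one 9054 nt, so the quantified start may differ. For Dab2, complete coding transcripts from the downstream start at base 6386748 of chromosome 15 took 3494 counts in replicate 1 and 4745 in replicate 2, against 8.93 and 1.83 counts for those from the upstream start at base 6299789. Dab2-214 lacks a known start and was left out of this split, with 61.8% of the gene's counts in replicate 1 and 65.3% in replicate 2.

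The 250 bases before these 4 starts differ in base composition, and they are printed here from the RefSeq table (GRCm38.p6), 5′ to 3′ on the gene's strand, with CG pairs in capitals, leaving out bases that belong to a coding transcript of M21. In the order shown they are chr14:30491157-30491406 (minus), chr14:30353487-30353736 (minus), chr15:6299539-6299787 (plus) and chr15:6386498-6386597 (plus).
Cacna1d upstream: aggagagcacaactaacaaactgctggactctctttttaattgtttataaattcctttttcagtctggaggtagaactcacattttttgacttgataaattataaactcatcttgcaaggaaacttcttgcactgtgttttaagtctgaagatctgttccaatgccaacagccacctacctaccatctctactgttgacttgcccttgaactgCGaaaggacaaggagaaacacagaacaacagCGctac
Cacna1d downstream: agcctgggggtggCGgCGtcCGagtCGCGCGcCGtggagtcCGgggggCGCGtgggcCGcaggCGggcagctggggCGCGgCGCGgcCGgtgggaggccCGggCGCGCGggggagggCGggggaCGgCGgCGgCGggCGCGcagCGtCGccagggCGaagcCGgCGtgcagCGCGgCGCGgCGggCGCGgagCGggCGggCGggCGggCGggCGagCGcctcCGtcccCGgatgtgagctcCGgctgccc
Dab2 upstream: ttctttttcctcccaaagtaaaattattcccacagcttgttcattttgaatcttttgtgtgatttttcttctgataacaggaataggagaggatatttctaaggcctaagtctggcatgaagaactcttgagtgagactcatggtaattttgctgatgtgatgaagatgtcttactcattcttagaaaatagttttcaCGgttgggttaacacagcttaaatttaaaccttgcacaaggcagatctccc
Dab2 downstream: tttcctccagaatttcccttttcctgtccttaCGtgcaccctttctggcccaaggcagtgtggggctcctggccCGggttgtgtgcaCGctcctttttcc

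Over the full 250 bases, the upstream Cacna1d window had a GC content of 39.6% and 2 CG pairs, and the downstream one 86.4% and 50 CG pairs. The upstream Dab2 window had 36.8% GC and 2 CG pairs, and the downstream one 60% and 17, while the median of 32851 RefSeq windows was 52.4% GC and 6 CG pairs. By counts assigned to transcripts, placed by M21, the start with more was the CG-poor one in Cacna1d and the CG-rich one in Dab2, in both libraries. For Dab2 this leaves out Dab2-214, which held most of the gene's counts. Windows were found for 5 of the 9 genes (Kcnj5, Vsnl1, Cacna1d, Dab2 and Clcn2), 8 in all; Kcnk3, Kcnk9, Cacna1h and Atp2b3 had none. Searched on both strands, TATAAA occurred in 1 of the 8, the upstream Cacna1d window, where the match nearest the start ended 145 bases before it, against 12.4% of all windows. AAGGTCA, a binding motif of the steroidogenic factor encoded by Nr5a1, and TGACGTCA, the cyclic AMP response element, occurred in none of the 8, against 4.08% and 1.55% of all windows.

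The rest of the aldosterone pathway was read from a list of 30 genes, of which 29 reached 1 TPM in both libraries. Of the receptors, Agtr1a, the main angiotensin II receptor gene, was at 93.66 and 118.72 TPM in replicates 1 and 2, and its copy Agtr1b at 5.56 and 6.95 TPM. The corticotropin receptor gene Mc2r was at 145.24 and 264.02 TPM. Downstream of the receptor, Gna11 (122 and 123 TPM) was far above Gnaq (7.80 and 6.84 TPM), and the phospholipase genes Plcb3 (46.72 and 37.94 TPM) and Plcb1 (26.08 and 40.95 TPM) were of like size. The calcium store channel genes Itpr1 (8.08 and 12.47 TPM) and Itpr3 (6.08 and 6.90 TPM) were lower than the plasma membrane channel Cacna1h.

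Of the calmodulin genes, which encode calcium sensors, Calm3 (406 and 409 TPM) stood above Calm2 (6.81 and 6.32 TPM). Among the kinase genes, Camk2d (117 and 138 TPM) and Camk1 (56.30 and 68.77 TPM) led, and Camk4 was at 0.11 TPM in both. The orphan nuclear receptor gene Nr4a1, an activator of aldosterone synthase, was at 157.73 and 411.74 TPM in replicates 1 and 2, and its relative Nr4a2 at 5.54 and 8.62 TPM. Among the steroid enzymes, Cyp21a1 was at 14483 and 19341 TPM, Hsd3b1 at 2831 and 3268 TPM, and Hsd3b6, the isoform of the mouse glomerulosa, at 21.12 and 21.89 TPM. Kcnk3 was above Hsd3b1, Star (1839 and 2820 TPM) and Cyp11a1 (1495 and 1911 TPM) in both libraries, and Kcnk9 was above Hsd3b6.

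Of 11 other glomerulosa genes, 10 reached 1 TPM in both libraries, and Mcoln3 had 0 counts. The signalling genes Wnt4 (77.15 and 106.54 TPM), Shh (59.35 and 34.94 TPM) and Rspo3 (29.83 and 21.55 TPM), the receptor gene Fgfr2 (50.82 and 48.30 TPM) and Nr0b1 (67.56 and 80.44 TPM) were each above Atp2b3 by their mean except Rspo3. Rspo3 is also among the capsule and stroma markers summed above, so it does not stand for the glomerulosa alone. Tmem200a (24.31 and 19.12 TPM), Slc30a1 (17.72 and 16.61 TPM), Lef1 (9.33 and 10.89 TPM) and Cadm1 (7.16 and 6.52 TPM) were lower. Ctnnb1, the beta-catenin gene, was at 77.11 and 193.78 TPM in replicates 1 and 2.

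The difference between the libraries was expressed as the log2 ratio of TMM-scaled counts, replicate 1 over replicate 2, with an exact Clopper-Pearson 95% interval for counting error. A gene was called past 2-fold when its ratio exceeded that size at a summed count of at least 20. This call was met by 1 of the 9 genes, Kcnj5, against 7.63% of all tested genes in either direction and 4.78% in the direction of replicate 1. Its log2 ratio was 1.18, with an interval of 0.016 to 2.56, and among genes with a summed count of 20 to 99, as it has, 29.0% were past 2-fold. The call rests on the 19 and 9 counts above, and its interval reaches nearly to 0.

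The other 8 ratios were smaller than 2-fold. Vsnl1 was next, with a log2 ratio of -0.96 (-1.30 to -0.63), or 1.94-fold higher in replicate 2, and the TPM ratio was 2.02. Clcn2 had -0.45 (-0.48 to -0.42), Dab2 -0.43 (-0.47 to -0.39), Atp2b3 -0.15 (-0.21 to -0.08) and Kcnk3 -0.13 (-0.14 to -0.13), all higher in replicate 2. Cacna1h was higher in replicate 1 at 0.41 (0.39 to 0.44). The intervals of Kcnk9, at 0.05 (-0.04 to 0.14), and of Cacna1d, at -0.12 (-0.25 to 0.00), held 0.

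In all, 6 of the 9 genes were higher in replicate 2 and 3 in replicate 1. The median log2 ratio of the 9 was -0.13, beside 0.00 for all tested genes. The 30 pathway genes were at a median of -0.18, with 8 higher in replicate 1 and 22 in replicate 2, and 1 of them, Nr4a1, past 2-fold. Of the 11 other glomerulosa genes, the 10 that could be tested had a median of 0.08, with 1 past 2-fold, Ctnnb1. Scaling on the spike-ins instead moved the median of all genes to -0.43 and that of the 9 to -0.57, and gave Cacna1h -0.02 and Kcnk9 -0.38. On that scale Kcnj5 was at 0.77 and Vsnl1 at -1.39, so the single gene past 2-fold was Vsnl1.

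**Figure D5:**
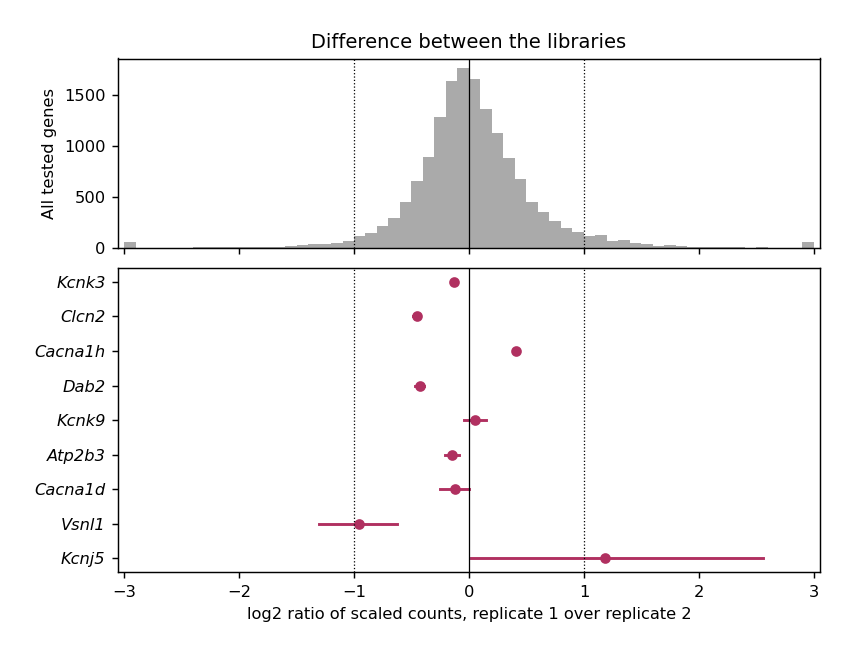
Top, number of tested genes per bin of the log2 ratio of scaled counts, replicate 1 over replicate 2, with values past 3 gathered in the end bins; bottom, the 9 genes with their 95% counting intervals. Dotted lines mark 2-fold. Kcnj5 at 1.18 is the only one beyond a line, with an interval reaching down to 0.016, and Vsnl1 at -0.96 lies at the other line.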

How the data were processed

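Poly(A) RNA of whole adrenal glands was sequenced in 2 libraries of 1 group, both used. The gene and transcript tables derive from alignments to mm10 with annotation M4, per the file headers and readmes deposited with them; the sources used here do not name the aligner, the quantifier or a version. Expected counts, as deposited by the authors, are unnormalized estimates of read pairs per gene. TPM and posterior mean TPM, scaled by the authors to a fixed total, and the authors' FPKM are levels per length. Tables of contigs and junctions on mm9 were not used here.

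Names, positions and transcript classes came from GENCODE M21 (GRCm38) by identifier without version, matching 42462 of 43346 mouse identifiers. Expected counts were rounded to whole numbers and scaled by TMM (edgeR 4.0.16, R 4.3.3), leaving out 96 spike-ins. Log2 ratios used these rounded counts and a prior count of 0.5. Intervals came from scipy 1.17.1. A gene counted as detected at 1 TPM or more in both libraries. No p-value is given, since 1 library per side leaves no residual degrees of freedom.

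All 9 genes are reported, with detected family genes, genes of the pathway lists and sums of marker lists. Some genes of these lists are not reported here. Members and lists were chosen with earlier results of these data known. Alternatives were DESeq2 1.42.0 size factors, total counts, spike-in scaling, ratios of TPM or log2(TPM + 1), FPKM rescaled to the total of TPM, posterior mean TPM, TPM over protein-coding genes, other minimums and prior counts, and each library alone.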

Additional observations from a re-analysis of the deposited data

How the results depend on the processing

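No paired analysis was possible because there is 1 group of 2 libraries, so no groups share replicate numbers. The number of the 9 genes above 100 TPM in both libraries was 4, and 1 with complete coding transcripts only, an alternative chosen after seeing the data. The order of all 9 genes was kept at 5 places by scaled counts not divided by length and at 5 by complete coding transcripts only. The count past 2-fold was 1, against 2 by the ratio of TPM, which added Vsnl1, and 0 with a minimum summed count of 100, which left out Kcnj5. With spike-in scaling it stayed 1 but the gene was Vsnl1 and not Kcnj5, the median log2 ratio of the 9 genes was -0.57 in place of -0.13, and Cacna1h (-0.02) and Kcnk9 (-0.38) lay below 0. Because the spike-in shares of the libraries differed, every ratio moved with this choice; the cause was not tested. The numbers of genes detected, holding most of their family's TPM and with the same leading transcript stayed within 1.5 times the values above under the alternatives run. Family shares were not run with complete coding transcripts only. Among values of single genes, 8 of 36 family shares, 7 of 20 leading transcript shares, 12 of 45 log2 ratios and 6 of 54 mean TPM moved by more than the spread between the libraries or their counting interval. With 2 libraries the spread of a level is poorly known, and Kcnj5, on 19 and 9 counts, is limited by depth.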
